A study of Arabidopsis thaliana with 21 samples.

Results

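HSP17.4 (AT3G46230) and HSP70-4 (AT3G12580) are 2 heat shock genes of Arabidopsis thaliana whose transcripts were higher in leaf protoplasts given NLP7 together with KIN10 than in protoplasts given NLP7 or GFP. They were matched by gene symbol and gene identifier among the 2065 genes that the authors listed for protoplasts. They were chosen by their FPKM in these same libraries, that is for this pattern, so their own levels and ratios are described without a test. Both genes were listed against GFP only for NLP7 with KIN10, which held for 80 of the 2065 listed genes (3.87%).

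KIN10 belongs to SnRK1, a protein kinase complex that plants activate when energy is low, and is one of its catalytic subunits; NLP7 is a transcription factor that turns on nitrate-responsive genes. In 3 groups of mesophyll protoplasts, which are leaf cells without their walls, plasmids for NLP7-GFP plus KIN10-Myc, for NLP7-GFP, or for GFP were transfected, with 3 biological replicate libraries in each group. All 9 libraries came from wild-type Col-0 plants according to the genotype label, whereas another label field named Ler seedlings. The plants were grown in soil for 4 weeks with 8 h of light a day. Every group carried a GFP or a GFP fusion, and only 1 group received KIN10. None of the listed samples received KIN10 without NLP7, and deposited columns headed KIN10 that match no listed sample were not used here. The promoters and amounts of the plasmids were not given in the sources used here. From roots, 12 libraries of KIN10-overexpressing and Ler plants are used for context.

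Heat shock proteins are molecular chaperones that bind unfolded proteins. Small heat shock proteins hold such proteins in a state from which they can be refolded, and HSP70 proteins refold them with ATP and J-domain co-chaperones. Their genes are switched on by heat shock factors, which bind as trimers to inverted repeats of the letters GAANNTTC in promoters. HSP17.4 encodes a cytosolic class I small heat shock protein, which the reference annotation describes as a main small heat shock protein of maturing seeds, and HSP70-4 encodes a cytosolic HSP70.

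Both genes lie on chromosome 3 on the minus strand, and the files give a single transcript for each. HSP17.4 spans 16984118 to 16984841 and HSP70-4 spans 3991117 to 3993886, in the build TAIR10 named in the submitters' processing notes. The 250 bases before each annotated transcript start were read from RefSeq's TAIR10.1, in which 2041 of the 2065 listed genes have the same start and end as in the files. They are shown because they hold the contrast between the promoters, with capitals marking the searched heat shock element letters, namely overlapping GAANNTTC and TTCNNGAA pairs. HSP17.4 is shown from chr3:16984842-16985091 and HSP70-4 from chr3:3993887-3994136, both on the minus strand, and neither window overlaps another coding gene.
HSP17.4 promoter: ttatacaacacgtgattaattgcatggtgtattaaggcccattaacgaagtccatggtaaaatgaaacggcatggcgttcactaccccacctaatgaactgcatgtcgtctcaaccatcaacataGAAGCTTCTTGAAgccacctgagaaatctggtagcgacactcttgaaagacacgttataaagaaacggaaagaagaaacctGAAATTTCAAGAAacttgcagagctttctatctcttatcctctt
HSP70-4 promoter: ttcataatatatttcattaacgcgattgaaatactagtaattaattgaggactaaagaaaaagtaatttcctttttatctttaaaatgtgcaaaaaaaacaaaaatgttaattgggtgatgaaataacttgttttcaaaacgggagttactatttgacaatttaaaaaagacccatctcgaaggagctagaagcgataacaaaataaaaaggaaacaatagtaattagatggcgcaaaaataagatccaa

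The HSP17.4 promoter held, at 2 places, a GAANNTTC and a TTCNNGAA that share 3 letters, which together make a 3-part element, 125 to 113 and 44 to 32 bases before the transcript start. The HSP70-4 window held neither pair. Among 27443 nuclear coding genes, 16.2% had GAANNTTC or TTCNNGAA in the same window and 107 (0.39%) had such a 3-part element on either strand. Both strands were searched, GAANNTTC and TTCNNGAA each read the same on both. The matches describe letters and not bound sites.

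HSP17.4 had 83.3, 68.5 and 103 FPKM in the 3 libraries of NLP7 with KIN10, against 34.9, 27.0 and 37.2 FPKM in those of NLP7 and 32.4, 30.8 and 37.1 FPKM in those of GFP. FPKM are fragments per kilobase of transcript scaled to the mapped fragments of a library. All 3 libraries of NLP7 with KIN10 lay above all 6 others, whereas NLP7 and GFP libraries overlapped. The means were 85.0 ± 17.44 FPKM for NLP7 with KIN10, 33.0 ± 5.38 FPKM for NLP7 and 33.4 ± 3.25 FPKM for GFP (SD, n = 3 each). The mean in NLP7 with KIN10 was 2.57 ± 0.389 times that in NLP7 and 2.54 ± 0.333 times that in GFP (ratio of means ± SE). The mean in NLP7 was 0.988 ± 0.108 times that in GFP, so the NLP7 and GFP levels of this small heat shock gene, in FPKM, differed by less than their spread.

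HSP70-4 had 109, 104 and 116 FPKM in NLP7 with KIN10, against 59.2, 59.3 and 68.9 FPKM in NLP7 and 56.4, 58.7 and 46.8 FPKM in GFP. The libraries of NLP7 with KIN10 again lay above all 6 others, and NLP7 lay above GFP without overlap, as in 1861 of 2065 listed genes (90.1%), although the lowest NLP7 library was only 1.01 times the highest GFP library. The means were 109.5 ± 6.25 FPKM for NLP7 with KIN10, 62.5 ± 5.56 FPKM for NLP7 and 54.0 ± 6.32 FPKM for GFP (SD, n = 3 each). The mean of this cytosolic HSP70 in NLP7 with KIN10 was 1.75 ± 0.107 times that in NLP7 and 2.03 ± 0.153 times that in GFP. The NLP7 mean was 1.16 ± 0.0983 times the GFP mean.

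These ratios rest on FPKM, which scale each library to all its mapped fragments. When counts were instead scaled by TMM over the listed genes, most of which were selected for a difference between NLP7 and GFP, the log2 ratio of NLP7 with KIN10 over NLP7 was 2.83 for HSP17.4 and 2.29 for HSP70-4, in place of 1.36 and 0.81. Over GFP it was 0.95 for HSP17.4 and 0.68 for HSP70-4, in place of 1.35 and 1.02. The log2 ratio of NLP7 over GFP became -1.88 for HSP17.4 and -1.61 for HSP70-4, in place of -0.02 and 0.21, so both genes stayed highest in NLP7 with KIN10 but their order between NLP7 and GFP depends on the scaling. Of the 2065 listed genes, 1846 (89.4%) were listed as higher in NLP7 than in GFP, so scaling over them can take up that selected difference. The values of -1.88 and -1.61 are therefore not read as a fall with NLP7.

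**Figure D1:**
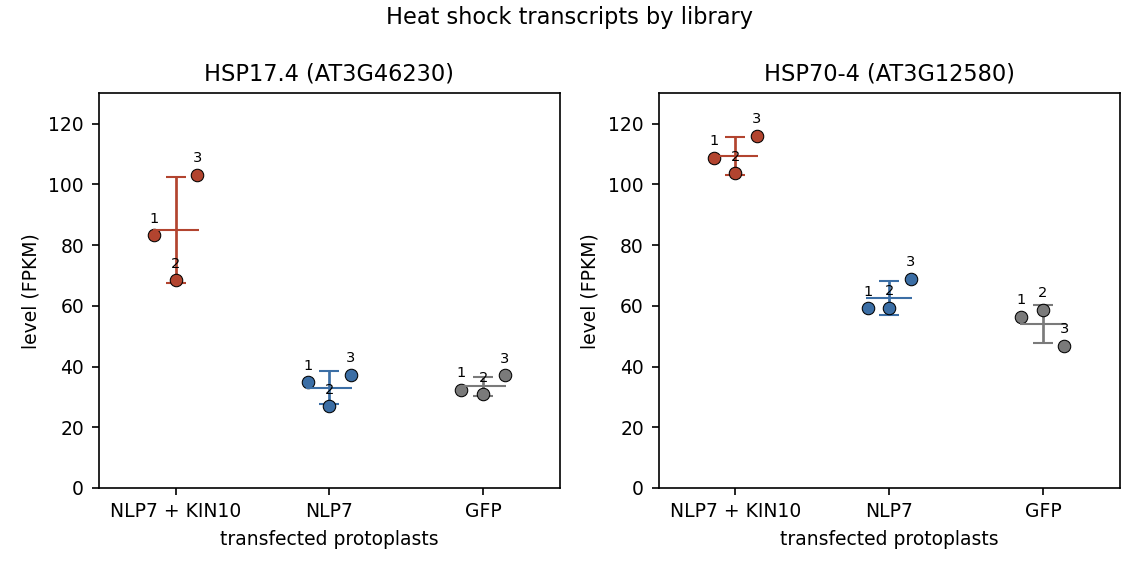
Level of HSP17.4 (left) and HSP70-4 (right) in FPKM on the vertical axis, by transfected protoplasts on the horizontal axis; points are libraries with their replicate number, and lines and bars are the mean and SD of 3 libraries. For both genes the 3 points of NLP7 with KIN10 lie above the 6 other points, at 68.5 FPKM or more for HSP17.4 and 104 FPKM or more for HSP70-4.

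The gap between the groups was wider for the small heat shock gene than for HSP70-4, as a description without a test. The lowest library of NLP7 with KIN10 was 1.84 times the highest NLP7 library for HSP17.4 and 1.504 times for HSP70-4. Against the highest GFP library the same ratio was 1.85 for HSP17.4 and 1.76 for HSP70-4. The libraries of NLP7 with KIN10 varied more for HSP17.4, with a coefficient of variation of 20.5%, than for HSP70-4, with 5.71%. Per transcript length, HSP70-4 was the higher of the pair in every library. Its FPKM was 1.31, 1.51 and 1.12 times that of HSP17.4 in NLP7 with KIN10, against 1.70, 2.201 and 1.85 times in NLP7 and 1.74, 1.90 and 1.26 times in GFP. The libraries of NLP7 with KIN10 overlapped with those of GFP in this ratio and lay below those of NLP7.

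The estimated fragments behind these levels numbered 764, 632 and 757 for HSP17.4 in NLP7 with KIN10, against 303, 213 and 321 in NLP7 and 271, 229 and 297 in GFP. The exact Poisson 95% interval of the smallest, 213, was 185 to 244 fragments and covers counting error only. HSP70-4 had 4233 to 4950 fragments in NLP7 with KIN10, against 2326 to 2957 in NLP7 and 1818 to 2325 in GFP. All estimates for both genes were whole numbers, but both belong to families with similar copies, and how fragments shared with such copies were assigned was not given in the labels. The reference also annotates 2 genes that overlap HSP17.4, among them an antisense RNA inside it (AT3G07365), and read strand was not given in the sources used here, so reads of that antisense RNA and of HSP17.4 cannot be told apart. No annotated gene overlaps HSP70-4.

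Library sizes recovered from the deposited counts and FPKM were 16220353 to 20436636 fragments in NLP7 with KIN10, 17430328 to 19096584 in NLP7 and 16189981 to 18298149 in GFP. Of the 12 mesophyll markers 3 were listed, the light-harvesting gene CAB1, the Rubisco gene RBCS2B and the Calvin cycle gene GAPA. Their summed level was 709 to 1186 FPKM in NLP7 with KIN10, against 1243 to 1409 FPKM in NLP7 and 465 to 519 FPKM in GFP. The sum joins opposite directions. RBCS2B averaged 397 FPKM in NLP7 with KIN10 against 244 FPKM in NLP7, whereas CAB1 averaged 417 against 928 FPKM and GAPA 64.1 against 132 FPKM. All 3 were listed as higher with NLP7 than with GFP, so they are not a neutral measure of mesophyll cells. Of 14 markers of other leaf cells 2 were listed, the trichome gene GL2 and the xylem gene XCP1, and both were at 0 in every library of NLP7 with KIN10 and of GFP. In NLP7, GL2 had 1.66, 1.49 and 1.82 FPKM and XCP1 had 0.25, 0.16 and 0.10 FPKM. GL2 and XCP1 were likewise listed as higher with NLP7 than with GFP, so they are not a neutral measure of other leaf cells. In bulk RNA, fewer cells of a type and less RNA per cell cannot be told apart.

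The transfected genes checked the labels. The KIN10 transcript had 407, 287 and 546 FPKM in NLP7 with KIN10, against 26.2, 27.4 and 30.1 FPKM in NLP7 and 32.4, 33.1 and 31.6 FPKM in GFP. The NLP7 transcript had 280.2, 212 and 417 FPKM in NLP7 with KIN10, against 2261, 1536 and 1949.7 FPKM in NLP7 and 52.7, 53.7 and 43.2 FPKM in GFP. The groups therefore differed in the amount of NLP7 transcript as well as in KIN10: its mean was 6.32 ± 1.44 times lower in NLP7 with KIN10 than in NLP7. The part of this difference in the levels of HSP17.4 and HSP70-4 was not tested. Within NLP7 with KIN10, replicate 3 was the highest library and replicate 2 the lowest for KIN10, NLP7, HSP17.4 and HSP70-4 alike, and replicate 3 was also the highest in the summed mesophyll markers.

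**Figure D2:**
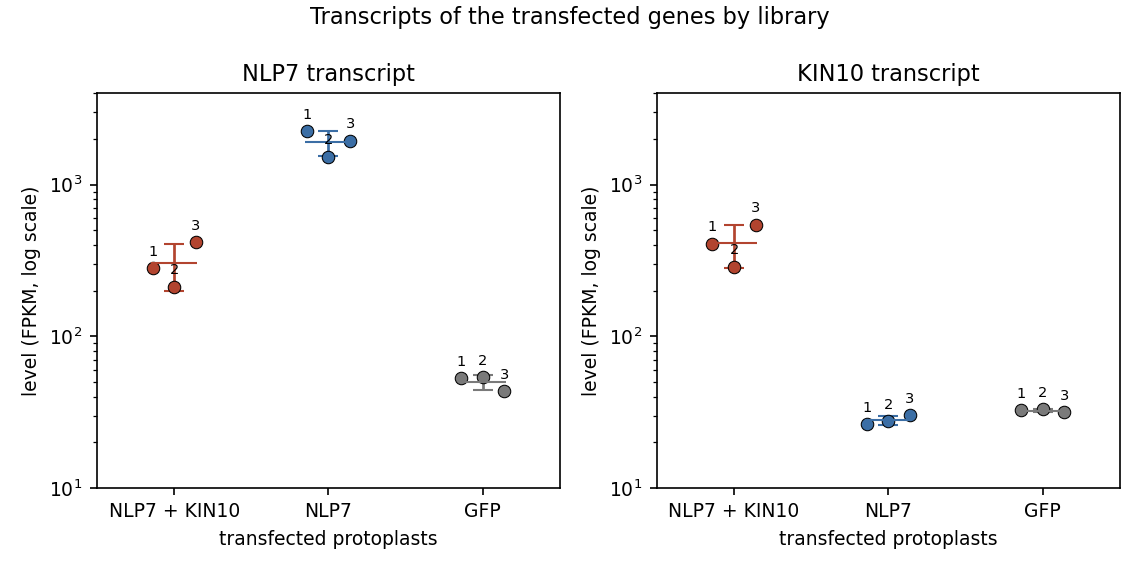
Level of the NLP7 transcript (left) and the KIN10 transcript (right) in FPKM on a log axis, by transfected protoplasts; points are libraries with their replicate number, and lines and bars are the mean and SD of 3 libraries. KIN10 stands apart only in NLP7 with KIN10, at 287 to 546 FPKM, and NLP7 lies between its NLP7 and GFP levels there.

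The direction of both genes was uncommon among the listed genes, most of which the authors selected for a difference between NLP7 and GFP. Of 2065 genes, 23 (1.11%) had a mean at least 2-fold higher in NLP7 with KIN10 than in NLP7 with libraries that did not overlap, and 1478 (71.6%) were at least 2-fold lower in the same way. HSP17.4 was among the 23, and HSP70-4, at 1.75-fold, was among the 90 (4.36%) that were higher without overlap at any fold. Against GFP, 433 genes (21%) were at least 2-fold higher in NLP7 with KIN10 without overlap, and both heat shock genes were among them. Since both were chosen with these contrasts known, nothing is read from their place in the counts.

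By the ratio of NLP7 with KIN10 over NLP7, HSP17.4 ranked 26th and HSP70-4 ranked 56th from the top of 1977 genes with a level in both groups, at log2 ratios of 1.36 and 0.81 beside a median of -1.54. By the ratio of NLP7 over GFP they ranked 1599th and 1594th of 1763 genes, at -0.02 and 0.21 beside a median of 1.78. In 13 listed genes (0.63%), HSP17.4 among them, every library of NLP7 with KIN10 lay above every other library while NLP7 and GFP overlapped. HSP70-4 missed this pattern by the 1.01-fold gap between its NLP7 and GFP libraries. In NLP7 with KIN10, 55 listed genes had a higher mean FPKM than HSP17.4 and 39 a higher one than HSP70-4, against 249 and 164 in NLP7, and 93 and 56 in GFP. Both genes were chosen for this pattern, and neither was listed for NLP7 against GFP. Their ranks were therefore largely set by the choice, and nothing is read from them.

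**Figure D3:**
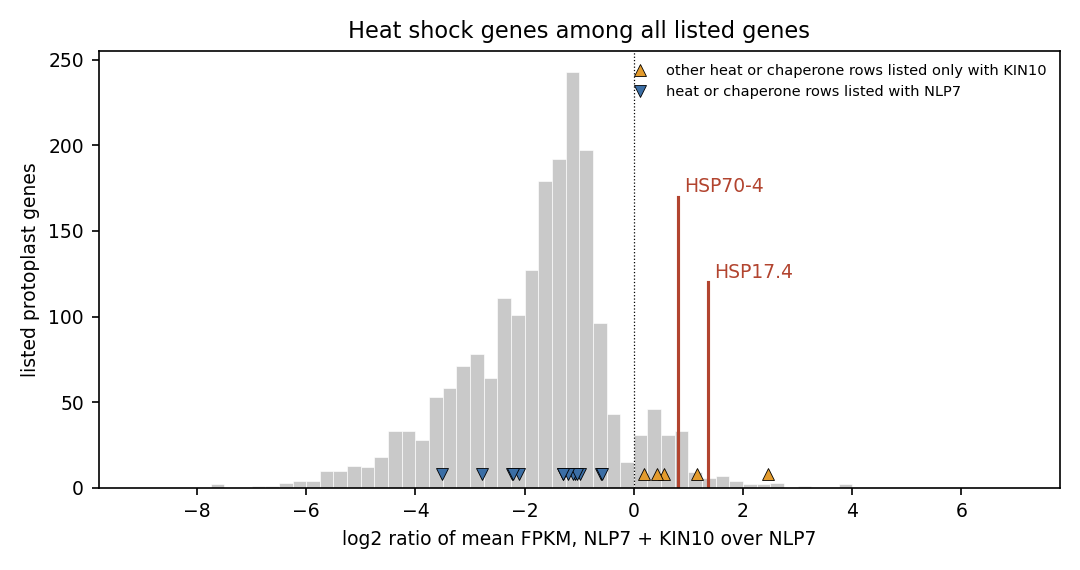
Number of listed protoplast genes (vertical axis) by log2 ratio of mean FPKM in NLP7 with KIN10 over NLP7 (horizontal axis); red lines mark HSP17.4 and HSP70-4, and triangles mark other heat shock and chaperone rows by where the authors listed them. The bulk of genes lies left of 0, with a median of -1.54, and HSP17.4 at 1.36 and HSP70-4 at 0.81 lie to its right.

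Few genes of the wider heat shock machinery have values in these tables. Of 105 genes in 9 lists of chaperones, co-chaperones, heat shock factors and unfolded protein genes, 9 were listed in protoplasts, HSP17.4 and HSP70-4 included. Without that pair it was 7 of 103 (6.8%), close to the 2065 of 27443 nuclear coding genes (7.52%) listed over the genome. The 9 were 4 of 18 small heat shock proteins, 2 of 18 HSP70 family genes, 1 of 7 HSP60 chaperonins, 1 of 21 heat shock factors and 1 of 5 further heat response genes. None of 7 HSP90, 4 HSP100 or ClpB, 17 J-domain or co-chaperone and 8 unfolded protein genes was listed, and those genes were not analysed here. In the authors' deposited tables, 6 of the 7 were higher than GFP with NLP7 and KIN10, where 393 of all 2065 (19%) were, and 3 of the 7 were higher than GFP with NLP7, where 1846 of 2065 (89.4%) were. A gene is in the tables only if it passed 1 of these comparisons, so the counts describe the listing and support nothing further. The median log2 ratio of NLP7 with KIN10 over NLP7 was 0.18 over the 7, and -1.54 over the 1977 listed genes with a level in both groups. Of the 7, 4 were listed only with KIN10, so the listing largely set this difference and nothing is read from it.

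A wider set of 19 rows joined those 7 with 3 rows annotated with heat shock words and 9 annotated as chaperones, DnaJ or GrpE proteins, the last chosen after values were seen. In 5 of the 19, as in HSP17.4 and HSP70-4, the authors listed a difference from GFP only with KIN10, which selected them for a level in NLP7 with KIN10 that differs from GFP while NLP7 does not pass. They had their highest mean in NLP7 with KIN10, as did 65 of all 2065 genes (3.15%). The other 14 were listed for NLP7 against GFP, which selected them for a high level in NLP7, and in each the libraries of NLP7 with KIN10 lay below those of NLP7, as in 1722 of 2065 genes (83.4%). The direction of either set against NLP7 was therefore largely set by the listing. Of the 19 rows 18 had enough counts for edgeR's quasi-likelihood test with Benjamini-Hochberg adjustment, in which 1 was higher in NLP7 with KIN10 than in NLP7, 14 were lower and 3 were not called. Over all 1722 genes tested, 66 (3.83%) were higher and 1488 (86.4%) were lower, and the split was 494 higher and 554 lower when counts were scaled over listed genes by TMM.

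Among small heat shock proteins, HSP21 (AT4G27670, chr4:13818825-13819971), which guards chloroplast proteins, had 0.35, 0.21 and 0.26 FPKM in NLP7 with KIN10, against 0, 0 and 0.15 FPKM in NLP7 and 0 in each GFP library. These levels rest on 5, 3 and 3 fragments in NLP7 with KIN10 and 0, 0 and 2 in NLP7. The HSP21 level per library size was 5.36 times as high in NLP7 with KIN10 as in NLP7, with a counting interval of 1.17 to 49.8, and at least 3.33-fold higher than in GFP with a floor of 3 fragments over the group. That interval pools the fragments of each group and leaves out the spread between libraries. HSP21 was listed only for being higher than GFP with KIN10, so nothing further is read from these ratios. AT1G54050 (chr1:20179357-20180566), an HSP20-like chaperone, had 2.15, 2.76 and 3.17 FPKM in NLP7 with KIN10, against 1.94, 2.05 and 2.00 FPKM in NLP7 and 1.29, 1.21 and 1.13 FPKM in GFP. Its log2 difference between NLP7 with KIN10 and NLP7 was 0.41 ± 0.25 (SE), with an adjusted p of 0.129 by edgeR.

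HSP23.6-MITO (AT4G25200, chr4:12916926-12918110), a mitochondrial small heat shock protein, had another pattern, with 2.42, 2.27 and 3.97 FPKM in NLP7 with KIN10, against 14.18, 10.11 and 12.9 FPKM in NLP7 and 0.42, 0.16 and 0.44 FPKM in GFP. No library of one group overlapped with another group. Its mean was 4.29 ± 0.909 times lower in NLP7 with KIN10 than in NLP7 and 8.49 ± 2.76 times as high as in GFP. By edgeR it fell by 2.12 ± 0.25 (SE) on the log2 scale in NLP7 with KIN10 against NLP7, with an adjusted p of 1.65e-06. HSP23.6-MITO was listed for NLP7 against GFP, which selected it for a high level in NLP7, so this test is not independent of its listing. The listed small heat shock genes thus included levels highest with KIN10 and a level highest with NLP7 alone.

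In the HSP70 family, HSP70T-2 (AT2G32120, chr2:13651442-13653945), a truncated relative, had 1.56, 1.11 and 2.5 FPKM in NLP7 with KIN10, against 1.35, 1.51 and 1.71 FPKM in NLP7 and 0.60, 0.71 and 1.22 FPKM in GFP. Its libraries of NLP7 with KIN10 overlapped with both other groups, and its log2 difference from NLP7 was 0.16 ± 0.30 (SE), with an adjusted p of 0.624 by edgeR. Without replicate 3 of NLP7 with KIN10 that difference was -0.20. HSA32 (AT4G21320, chr4:11340362-11342075), a heat-induced protein needed for lasting acquired thermotolerance, had 2.56, 2.30 and 3.19 FPKM in NLP7 with KIN10, against 2.03, 1.35 and 2.12 FPKM in NLP7 and 1.38, 0.92 and 1.41 FPKM in GFP. All 3 HSA32 libraries of NLP7 with KIN10 lay above the rest, but the log2 difference from NLP7 of 0.53 ± 0.26 (SE) did not pass, with an adjusted p of 0.0616 by edgeR. By edgeR it passed without replicate 2 of NLP7 with KIN10, with an adjusted p of 0.0448. When counts were scaled over listed genes by TMM, the log2 difference was 1.61 for HSP70T-2, 2.02 for HSA32 and 1.88 for AT1G54050, and all 3 passed, with adjusted p of 6.79e-05, 8.73e-07 and 2.56e-06 by edgeR. The same scaling moved the median log2 difference of all 1722 tested genes to 0.0099, from -1.47, and called 494 of them higher. All 3 rows were also listed only with KIN10, so nothing further is read from their passing.

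The 1 row higher by the test was AT1G72416 (chr1:27258747-27260521), annotated as a DnaJ-domain chaperone. It was listed only for being higher than GFP with KIN10 and was added by an annotation word chosen after values were seen, so its test is not independent of its choice. It had 1.26, 1.45 and 2.04 FPKM in NLP7 with KIN10, against 0.74, 0.80 and 0.58 FPKM in NLP7 and 0.43, 0.50 and 0.89 FPKM in GFP. Its log2 difference between NLP7 with KIN10 and NLP7 was 1.26 ± 0.34 (SE), with an adjusted p of 0.00300 by edgeR. The adjusted p ranged from 2.52e-06 to 0.0220 over the alternatives.

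HSFC1 (AT3G24520, chr3:8941066-8942874), the 1 heat shock factor listed and a member of class C, had 0.58, 0.30 and 0.64 FPKM in NLP7 with KIN10, against 3.19, 1.81 and 2.16 FPKM in NLP7 and 0.04 FPKM in each GFP library. By edgeR it fell by 2.25 ± 0.32 (SE) on the log2 scale in NLP7 with KIN10 against NLP7, with an adjusted p of 8.02e-06. The chloroplast chaperonin gene CPN60A (AT2G28000, chr2:11926446-11929488) had 9.65, 8.01 and 12.4 FPKM in NLP7 with KIN10, against 15.92, 15.41 and 14.45 FPKM in NLP7 and 5.95, 6.38 and 6.38 FPKM in GFP. CPN60A fell by 0.61 ± 0.17 (SE) on the log2 scale in NLP7 with KIN10 against NLP7, with an adjusted p of 0.00357 by edgeR, but its difference was 0.86 when counts were scaled over listed genes by TMM. The other 11 rows of the 14 fell as well. All 14 were listed for NLP7 against GFP, which selected them for a high level in NLP7. Their tests against NLP7 are therefore not independent of the listing. On the log2 scale GRV2, which has a J domain, fell by 0.59, and AT5G37440, annotated as a DnaJ-domain chaperone, fell by 3.56. When counts were scaled over listed genes by TMM, 9 of the 14 falls, those of CPN60A and GRV2 among them, took the opposite sign, and AT5G54660, an HSP20-like chaperone gene that had fallen by 2.23, was no longer called. That scaling moved the median log2 difference of all tested genes to 0.0099, from -1.47 with recovered library sizes.

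**Figure D4:**
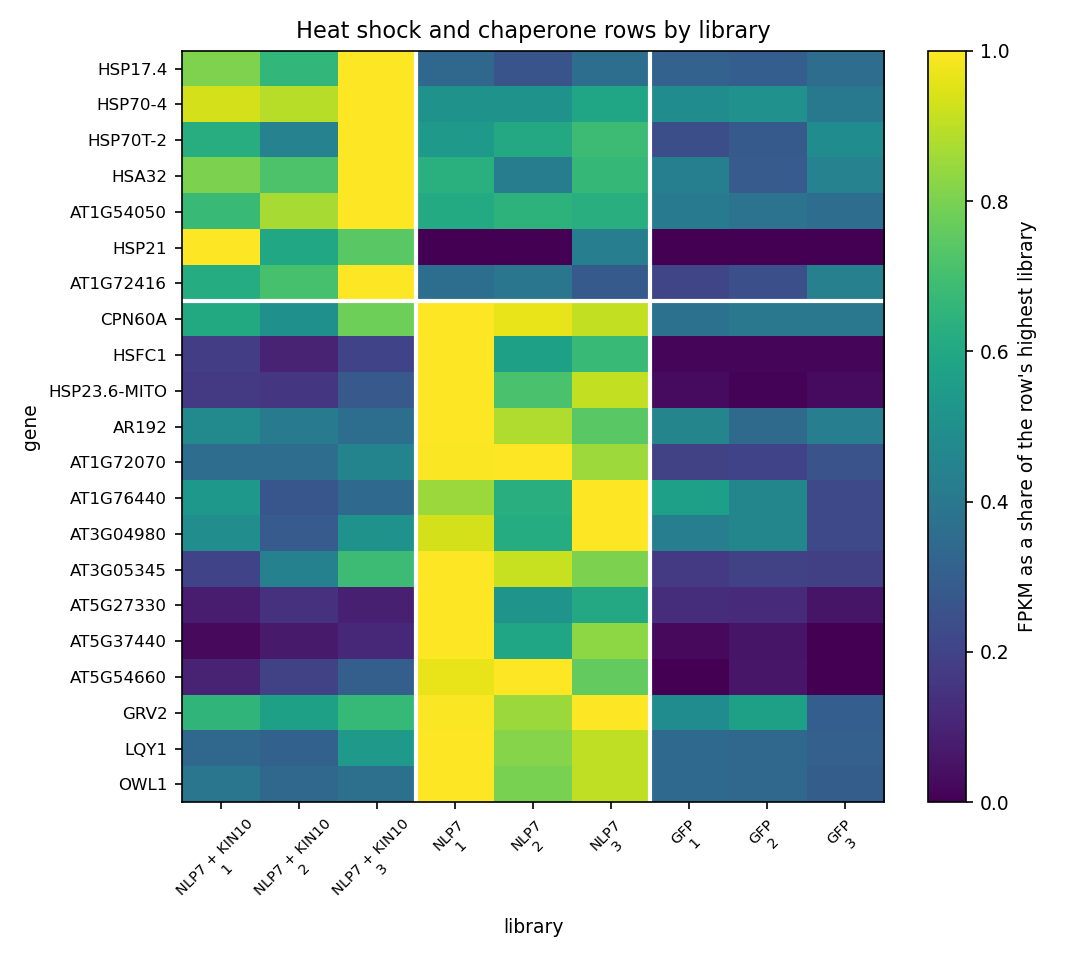
FPKM of 21 heat shock and chaperone genes (rows) in the 9 protoplast libraries (columns), each as a share of the gene's highest library on a scale of 0 to 1; the white horizontal line parts the 7 genes listed only with KIN10, above, from the 14 listed with NLP7. Each upper row is brightest in a library of NLP7 with KIN10 and each lower row in a library of NLP7, while HSP70T-2, with 1.11 FPKM in replicate 2 of NLP7 with KIN10 against 1.35 to 1.71 FPKM in NLP7, overlaps.

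The paired heat shock element letters were also looked for in the same 250-base windows of these 21 genes. Of the 7 listed only with KIN10, 4 held a pair, namely HSP17.4, HSA32, HSP21 and AT1G72416, and of the 14 listed with NLP7, 1 did, the DnaJ gene AT1G72070, beside 16.2% of all coding genes. The heat lists gave 6 of the 7 but only 3 of the 14, and the others were added by annotation words. The sets thus differ in kind of gene, and nothing is read from these counts. The pair of HSA32 lay 19 to 12 bases before the transcript start, that of HSP21 100 to 93 bases and that of AT1G72416 64 to 57 bases before it. HSP17.4 was the 1 gene of the 21 with the 3-part element. HSP70-4 held no exact match to either pair in its window.

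**Figure D5:**
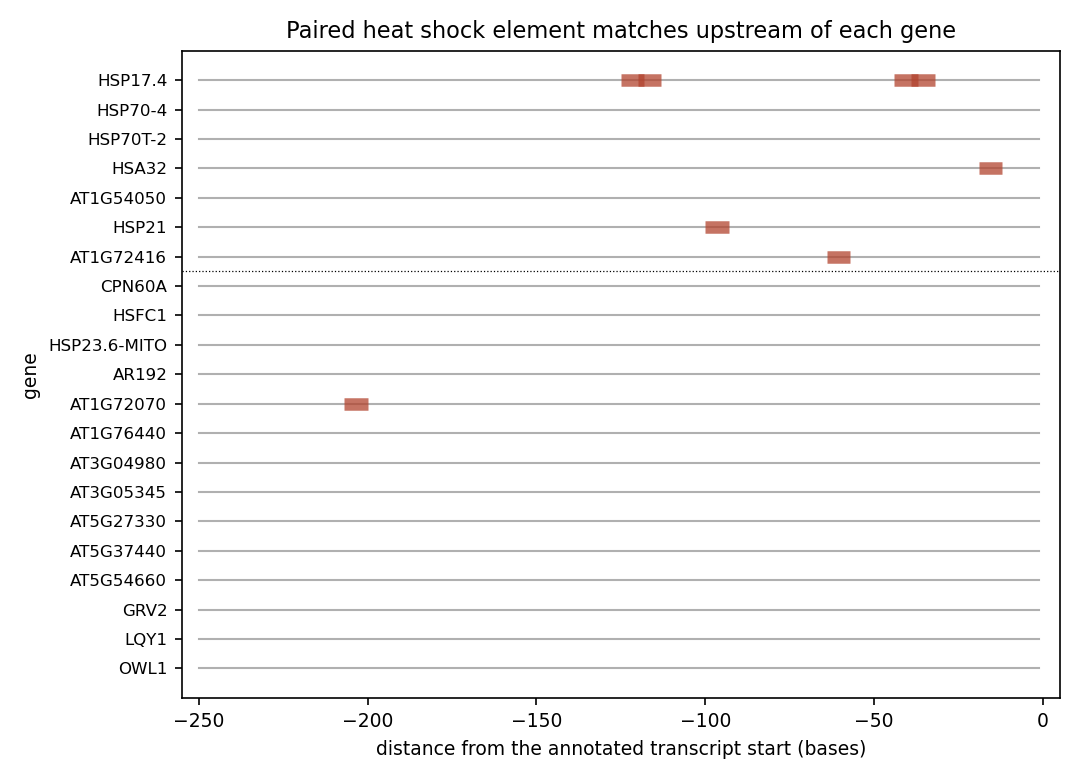
Positions of GAANNTTC and TTCNNGAA pairs (red boxes) in the 250 bases before the annotated transcript start (horizontal axis, bases) of the 21 genes (rows); the dotted line parts the 7 genes listed only with KIN10, above, from the 14 listed with NLP7. HSP17.4 has 2 places with overlapping pairs, 3 further genes above the line have 1 pair each, and HSP70-4 has none.

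The listed genes with the profile nearest to HSP17.4 over the 9 libraries, by Pearson's r of log2(FPKM + 1) among 1210 genes, were KIN10 itself at 0.976, AT1G72660 at 0.944, HSP70-4 at 0.923, PRR9 at 0.904 and HSA32 at 0.861. For HSP70-4 they were PRR9 at 0.955, KIN10 at 0.9495, HSP17.4 at 0.923, AT5G43064 at 0.908 and AT1G72660 at 0.888. These values describe 9 libraries that fall into 3 groups, so they share the step between NLP7 with KIN10 and the other groups. AT1G72660, annotated as a P-loop hydrolase, averaged 3.08 ± 1.14 FPKM in NLP7 with KIN10, against 0.46 ± 0.248 FPKM in NLP7 and 0.523 ± 0.188 FPKM in GFP (SD, n = 3 each). PRR9, a clock gene, averaged 3.70 ± 0.432 FPKM in NLP7 with KIN10, against 1.09 ± 0.227 FPKM in NLP7 and 0.363 ± 0.132 FPKM in GFP. Ranked by Spearman's rho, 2 of the 5 genes nearest to HSP17.4 and 1 of the 5 nearest to HSP70-4 stayed in their lists.

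Of 11 genes known to rise when SnRK1 is activated, 1 (9.09%) was listed, beside 7.52% of nuclear coding genes over the genome. The rest were listed in neither comparison with GFP and have no values here. The listed gene was the asparagine synthetase ASN1. The authors listed it for NLP7 against GFP, which selected it for a high level in NLP7. It had 74.4, 70.3 and 69.5 FPKM in NLP7 with KIN10, against 149, 145 and 154 FPKM in NLP7 and 69.7, 74.8 and 58.9 FPKM in GFP. It was lower in every library of NLP7 with KIN10 than in any of NLP7, as were 83.4% of listed genes, and its levels in NLP7 with KIN10 and in GFP overlapped.

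In roots, HSP17.4 and HSP70-4 were not among the 1128 genes that the authors listed for nitrate in KIN10-overexpressing (p35S:KIN10-HA) or Ler seedlings, so they have no values there. Those roots had 7 days on 5 mM nitrate, 2 days without nitrogen and 1 h of 5 mM KNO3 or KCl. Of the heat lists, 2 small heat shock genes were listed. AT4G21870 had 18.3, 11.7 and 14.24 FPKM with KNO3 and 5.70, 4.78 and 3.46 FPKM with KCl in KIN10-overexpressing roots, against 19.3, 24.0 and 17.3 FPKM with KNO3 and 4.82, 2.90 and 3.51 FPKM with KCl in Ler roots. AT1G52560 had 4.20, 2.87 and 3.68 FPKM with KNO3 and 1.26, 1.12 and 1.60 FPKM with KCl in KIN10-overexpressing roots, against 8.00, 8.98 and 8.11 FPKM with KNO3 and 4.55, 3.22 and 3.95 FPKM with KCl in Ler roots. AT1G52560 was lower in KIN10-overexpressing than in Ler roots with either salt, without overlap. The libraries of AT4G21870 overlapped between the genotypes with either salt, so no common direction by genotype is read from the pair. Both small heat shock genes were higher with KNO3 than with KCl in either genotype, without overlap. The authors listed both for nitrate in each genotype, which selected them for this difference. AT5G23240, a root row annotated with a DNAJ heat shock domain, went the other way, with 0.35, 0.39 and 0.49 FPKM with KNO3 and 1.71, 1.16 and 0.70 FPKM with KCl in KIN10-overexpressing roots, against 0.32, 0.53 and 0.18 FPKM with KNO3 and 1.05, 0.91 and 0.99 FPKM with KCl in Ler roots. AT5G23240 was also listed for nitrate in each genotype. These root differences were not tested here, and the share of the 1128 listed root genes with libraries that do not overlap was not counted.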

How the data were processed

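RNA sequencing of 9 protoplast libraries, 3 in each of 3 groups taken from the labels, was used, with 12 root libraries for context. Per the submitters' processing notes, HISAT and Bowtie2 were used with the TAIR10 build; the sources used here give no versions or strand settings. The authors deposited tables of selected genes only, each against GFP, of which 1985 genes were for NLP7, 455 for NLP7 with KIN10 and 375 for both. Per the file headers, they hold FPKM, TPM and expected counts per library, and a log2 fold change with p-values. The headers name DESeq2, while the series' design text names NOISeq with a 2-fold minimum. A further 18 columns of values, headed KIN10 in the protoplast tables, match no listed sample and were not used.

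Library sizes were recovered from expected counts, FPKM and transcript lengths of genes with at least 200 counts. Levels are means of FPKM ± SD, and ratios of means carry an SE from the spread of libraries. The deposited expected counts, not whole in 2.57% of listed genes, were rounded and tested with edgeR 4.0.16 (R 4.3.3) by the quasi-likelihood test with Benjamini-Hochberg adjustment, at 0.05, on all 9 libraries with recovered library sizes; 1722 of 2065 genes passed filterByExpr. DESeq2 1.42.0 and other scalings, filters and left-out libraries were alternatives. Upstream windows came from TAIR10.1 of RefSeq. Named genes are HSP17.4, HSP70-4, other heat shock rows, listed members of the heat lists, the 5 genes nearest in profile and the transfected genes. HSP17.4, HSP70-4 and the lists were chosen with earlier results of these data known.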

Additional observations from a re-analysis of the deposited data

How the results depend on the processing

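The ratios of HSP17.4 and HSP70-4 moved by less than 1 SD with TPM, counts per recovered library size, a pseudocount, geometric means or 1 library left out; with 1 library left out, the log2 ratio of NLP7 with KIN10 over NLP7 lay between 1.20 and 1.497 for HSP17.4 and between 0.77 and 0.89 for HSP70-4. Scaling over listed genes, added after seeing the data, moved them more: with TMM the log2 ratios of NLP7 with KIN10 over NLP7, over GFP, and of NLP7 over GFP were 2.83, 0.95 and -1.88 for HSP17.4 and 2.29, 0.68 and -1.61 for HSP70-4, and with median-of-ratios factors 2.62, 0.91 and -1.71 for HSP17.4 and 2.08, 0.64 and -1.44 for HSP70-4. The 23 genes at least 2-fold higher without overlap became 55 at 1.5-fold, 12 at 3-fold and 9 with a mean of at least 1 FPKM (879 in both directions, 870 lower), and 28 to 39 with 1 library left out, 39 without NLP7 with KIN10 replicate 1 and 38 without NLP7 replicate 3. By edgeR, 1554 genes were called (66 higher, 1488 lower), 1497 by DESeq2 and 1478 to 1563 with 1 library left out. Scaling over listed genes changed the split, and the cause was not tested: TMM called 494 higher and 554 lower, and median-of-ratios factors called 965, 328 higher and 637 lower. With TMM the log2 differences became 0.86 for CPN60A, 0.44 for AR192, 0.20 for AT1G72070, 0.38 for AT1G76440, 0.60 for AT3G04980, 0.40 for AT3G05345, 0.90 for GRV2, 0.26 for LQY1 and 0.19 for OWL1. With median-of-ratios factors they became 0.65 for CPN60A, 0.23 for AR192, 0.17 for AT1G76440, 0.39 for AT3G04980, 0.19 for AT3G05345, 0.69 for GRV2 and 0.049 for LQY1. HSP70T-2 was -0.20 without NLP7 with KIN10 replicate 3. AT3G04980 (adjusted p 0.0193) lost its call with DESeq2 (adjusted p 0.0524) and without NLP7 with KIN10 replicate 2, NLP7 replicate 1 or NLP7 replicate 3. The deviations of same-numbered libraries of NLP7 with KIN10 and NLP7 had correlations of -0.13, 0.34 and -0.02 over 585 genes. No clear pairing by number was seen, but 3 correlations cannot exclude it. With a replicate block edgeR called 1550 genes, 65 higher and 1485 lower, and HSA32 passed (adjusted p 0.0424). The deposited lists and 3 libraries a group limit what can be compared, and counts under about 5 fragments, as for HSP21, leave wide intervals.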
